A study of Mus musculus with 6 samples.

Results

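The 6 circRNAs described here are mmu_circRNA_22261, mmu_circRNA_42249, mmu_circRNA_25474, mmu_circRNA_32165, mmu_circRNA_41895 and mmu_circRNA_39251, which were brighter in the hippocampus of aged mice after surgery than in control mice. They are 6 of the 14236 circRNAs on the array. They were chosen because the study listed them among its most raised circRNAs, on the basis of the fold change and the unadjusted p between these same arrays, and 4 other raised circRNAs of that list are not described in detail. The differences between the groups are therefore given as a description, without a test. The study paired each of the 6 names with 1 probe, and their host genes and sequences were not analysed here.

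Circular RNAs are closed loops made by back-splicing, in which the end of an exon is joined to the start of the same or an earlier exon. Having no free ends, they resist exonucleases and are long-lived, and they are abundant in the brain, where many come from genes of neurons and synapses. Some circRNAs bind microRNAs or proteins, but for most of them no function is known. The array measures the labeled RNA that binds the probe of each circRNA.

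Hippocampal RNA of 6 male C57Bl/6 mice aged 18 months was hybridized to 1 array per mouse, labeled with Cy3. The 3 mice of the POCD (postoperative cognitive dysfunction) group had an open tibial fracture fixed with an intramedullary pin under isoflurane, with local lidocaine and tetracaine afterwards, so that injury, anesthesia and analgesia cannot be told apart. The 3 other mice were controls, whose handling in place of surgery is not given in the sources used here. Tissue was taken 3 days after surgery, after a fear conditioning test. In whole tissue, a change in the number of cells of a type and a change in RNA per cell cannot be told apart, and the tissue was not checked by marker genes, because the circRNA probes were not paired with genes.

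The 6 arrays lay on 1 slide and were read in 1 scan, and 98.3% to 99.5% of the probes for circRNAs rose well above background on any array. Before scaling, the 75th percentile of the log2 intensity was 8.06 on POCD replicate 3 and between 8.24 and 8.42 on the other arrays. In a principal component analysis of the scaled values, in which the first component held 62.3% of the variance, POCD replicate 3 was at one end with -40.6, and control replicate 2, at -8.33, lay among the POCD arrays rather than beside the other controls at 37.4 and 33.6. Control replicate 2 and POCD replicate 3 are therefore given separately where they decide a value. Precision is limited throughout by the number of arrays, which was 3 per group.

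The values that chose the 6 circRNAs were the deposited log2 intensities. In these, 88 of 14236 circRNAs, or 0.618%, were raised by at least 1.5-fold and had a p under 0.05 without adjustment in the methods' t-test, and the 6 took ranks 1, 3, 4, 6, 7 and 9 by fold change. The list ended at rank 10 with mmu_circRNA_27407, raised 1.961514-fold, and the probe ASCRP4002821 at rank 11 fell just outside with 1.960578-fold. The member nearest to that limit was mmu_circRNA_39251 with 1.962606-fold. On the side of the p, mmu_circRNA_25474 was just inside at 0.0499, and the probe ASCRP4000664, at a log2 fold change of 0.99, was just outside at 0.0597. In all, 28 probes had a fold change no smaller than that of mmu_circRNA_39251 but were outside by their p. These p-values only record how the list was made.

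Below, a scaled value is the log2 of the background-subtracted intensity minus the 75th percentile of the circRNA probes on the same array, so that 0 is the brightness of the circRNA at that percentile. A difference of 1 on this scale is a 2-fold difference in intensity. As a measure of technical error, 78 probes outside the circRNA set were each printed 10 times and rose well above background in all spots, and repeated spots of such a probe differed within an array by a median SD of 0.068 (log2).

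Over all 6 arrays, mmu_circRNA_22261 showed the largest difference of these circRNAs. Its scaled value was -0.74, -0.41 and -0.034 in POCD replicates 1, 2 and 3, and -1.28, -1.56 and -2.14 in control replicates 1, 2 and 3. There was no overlap of the groups, whose nearest arrays, POCD replicate 1 and control replicate 1, were 0.54 apart. The POCD mean was -0.40 ± 0.35 (SD, n = 3) against a control mean of -1.66 ± 0.44 (SD, n = 3), which gave a log2 difference of 1.26 (standard error 0.26) or 2.40-fold. The unscaled intensity behind these values was 201, 257 and 261 in POCD and 125, 108 and 72.6 in control. Control replicate 3 held the lowest intensity among the 36 measurements of the 6 circRNAs, and without it the log2 fold change was 1.02.

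mmu_circRNA_42249 was close to constant among controls and varied among the POCD mice. The scaled values were -0.0083, -0.80 and 0.35 in POCD replicates 1, 2 and 3, against -1.24, -1.19 and -1.35 in the controls. POCD replicate 2 was the lowest of its group but still 0.39 above the highest control. The POCD mean was -0.15 ± 0.59 (SD, n = 3) against a control mean of -1.26 ± 0.082 (SD, n = 3), which gave a log2 difference of 1.11 (standard error 0.26) or 2.15-fold. Unscaled, the intensities were 334, 196 and 340 in POCD and 128, 139 and 126 in control. POCD replicates 1 and 3 were thus alike, and POCD replicate 2 lay between them and the controls. Without POCD replicate 3 the log2 fold change was 0.85, and without POCD replicate 2 it was 1.43.

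mmu_circRNA_25474 had the widest spread within the POCD group and the narrowest gap between the groups. In POCD replicates 1, 2 and 3 its scaled value was -1.14, -0.53 and 0.15, and in control replicates 1, 2 and 3 it was -1.73, -1.26 and -1.83. POCD replicate 1 and control replicate 2 were only 0.12 apart, which is close to the spread of repeated spots. The POCD mean was -0.51 ± 0.65 (SD, n = 3) against a control mean of -1.61 ± 0.30 (SD, n = 3), which gave a log2 difference of 1.099 (standard error 0.31) or 2.14-fold. Without POCD replicate 3 the log2 fold change was 0.77, and without POCD replicate 1 it was 1.42. It was 0.46 with slide row as a block, below a fold change of 1.5, and under the methods' t-test on the scaled values the circRNA no longer passed the thresholds. Unscaled, the intensities were 152, 236 and 297 in POCD and 91.5, 132 and 90.0 in control, so the separation of POCD replicate 1 from control replicate 2 rested on 152 against 132 scanner units.

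mmu_circRNA_32165 had the smallest standard error of the 6, which was still above the median of 0.17 over all circRNAs tested. Its scaled value was 0.23, -0.39 and 0.31 in POCD replicates 1, 2 and 3, and -0.86, -1.02 and -1.07 in the controls. The groups were 0.47 apart at their nearest, between POCD replicate 2 and control replicate 1. The POCD mean was 0.049 ± 0.38 (SD, n = 3) against a control mean of -0.98 ± 0.11 (SD, n = 3), which gave a log2 difference of 1.03 (standard error 0.20) or 2.05-fold. The unscaled intensities were 394, 261 and 330 in POCD and 167, 157 and 152 in control, again with POCD replicate 2 nearest to the controls. Without POCD replicate 3 the log2 fold change was 0.90, and without POCD replicate 2 it was 1.25.

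mmu_circRNA_41895 was the brightest probe of the 6. Its scaled value was 2.34, 1.63 and 2.55 in POCD replicates 1, 2 and 3, and 1.198, 1.21 and 1.199 in control replicates 1, 2 and 3. The controls differed from each other by less than repeated spots of 1 probe do, whereas the POCD mice spanned nearly a full log2 unit. The POCD mean was 2.17 ± 0.48 (SD, n = 3) against a control mean of 1.20 ± 0.0086 (SD, n = 3), which gave a log2 difference of 0.97 (standard error 0.23) or 1.96-fold. Unscaled, the intensity was 1704, 1061 and 1565 in POCD and 695, 734.9 and 735.1 in control, and the nearest arrays on the scaled values were 0.42 apart. This standard error comes from limma, which takes the spread of all circRNAs into account, and not from the control SD alone.

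mmu_circRNA_39251 was the reverse in its spread, with alike POCD mice and 1 control apart. The scaled values in POCD replicates 1, 2 and 3 were 1.03, 0.94 and 1.17, and those in control replicates 1, 2 and 3 were -0.20, 0.65 and -0.18. Control replicate 2 lay between the other controls and the POCD group, 0.30 below the lowest POCD array. The POCD mean was 1.05 ± 0.12 (SD, n = 3) against a control mean of 0.089 ± 0.48 (SD, n = 3), which gave a log2 difference of 0.96 (standard error 0.23) or 1.95-fold. Without control replicate 2 it was 1.24, without control replicate 1 it was 0.82 and without POCD replicate 3 it was 0.90. The unscaled intensities were 687, 657 and 603 in POCD and 263, 496 and 283 in control.

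**Figure D1:**
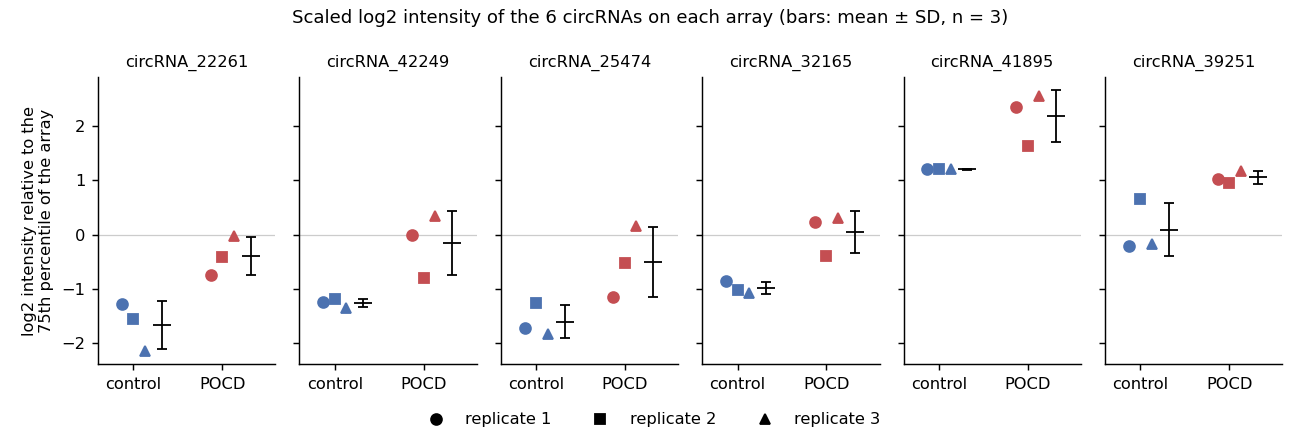
Scaled log2 intensity (vertical axis, relative to the 75th percentile of the array) of each of the 6 circRNAs on the 3 control and 3 POCD arrays, with the replicate number as the symbol and the mean ± SD (n = 3) as a bar beside the points. In each panel every POCD point lies above every control point, with the smallest gap, 0.12, for mmu_circRNA_25474.

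Among the 14144 circRNAs that were well above background on at least 3 arrays and were tested with limma, 257 or 1.82% were raised by 1.5-fold or more at an unadjusted p under 0.05, and all 6 were among them. The lowest POCD array exceeded the highest control array for 881 circRNAs, or 6.23%, again with the 6 among them. Both shares are given for scale only, since the 6 were picked on this contrast. The 6 ranked between 16 and 44 by log2 fold change, their median was 1.07, and the median over all circRNAs tested was -0.032. Their replicates also varied more than those of most circRNAs. The SD within groups, pooled over both groups, had a median of 0.38 for the 6 and 0.21 over all circRNAs tested. By this SD the 6 lay between percentiles 71.7 and 95.7. After Benjamini-Hochberg adjustment over all circRNAs, 0% passed an adjusted p of 0.05 with limma, while 2048 had an unadjusted p under 0.05. For the methods' t-test these numbers were 0 and 1140. Limma was also run with each array weighted by its spread around the group means, estimated from these same arrays. In that fit 592 circRNAs passed the adjusted threshold, all close to it, since the smallest adjusted p was 0.048. The log2 fold changes of the 6 then lay between 0.71 (mmu_circRNA_41895) and 1.41 (mmu_circRNA_22261). Without control replicate 2 and without weights, 560 circRNAs passed.

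The list was not made on brightness, although the POCD arrays that chose it enter the mean brightness. A probe's brightness also depends on the probe, so its percentile is no measure of the number of molecules. From the mean over all arrays, mmu_circRNA_25474 and mmu_circRNA_22261 lay near the middle of the circRNAs tested, at percentiles 57.5 and 58.0. mmu_circRNA_42249 was at 64.0 and mmu_circRNA_32165 at 68.1. mmu_circRNA_39251 at 82.0 and mmu_circRNA_41895 at 91.2 were among the brighter probes. Over the control arrays alone, the median percentile was 44.0 for mmu_circRNA_25474, the lowest of the 6, and 87.4 for mmu_circRNA_41895, the highest.

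On each array the members can also be placed by their percentile, which is bounded and leaves a bright probe little room to move. The median percentile of mmu_circRNA_22261 was 47.3 over the controls and 68.8 over the POCD arrays, and on single arrays it ran from 35.1 to 74.4. For mmu_circRNA_41895 the median was 87.4 over the controls and 94.1 over the POCD arrays. The median percentile was higher over the POCD arrays than over the controls for each of the 6, which were chosen on this same contrast.

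All 36 measurements were well above background, and none was saturated or marked as an outlier by the scanner software. The local background of these spots lay between 15 and 19 scanner units in POCD and between 17 and 22 in control. The median pixel of the spot was between 4.89 and 40.8 times its background in control and between 11.6 and 91.3 times in POCD. The scanner software put the error of a spot at no more than 10.1% of its intensity. Without any scaling between arrays, all POCD intensities of the 6 circRNAs exceeded the control intensities, as they did for 1060 or 7.49% of the circRNAs tested, and the log2 fold changes lay between 0.96 and 1.26.

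**Figure D2:**
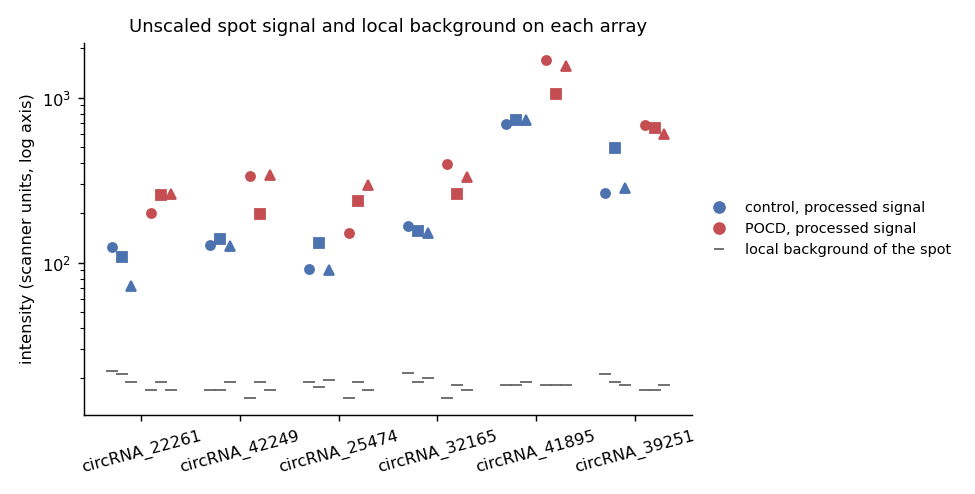
Background-subtracted intensity of each spot before scaling (vertical log axis, scanner units), with control arrays in blue, POCD arrays in red and the replicate number as the symbol, together with the local background of the spot as a grey dash. The spots range from 72.6 to 1704 and the local backgrounds from 15 to 22.

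The replicates of a group can vary together. This variation was measured apart from the difference between the groups, as the deviation of each array from the mean of its group. The choice of the 6 was not blind to it, since the p used there also depends on the spread within groups. In the scaled values POCD replicate 3 was the highest POCD array for all 6 circRNAs, by between 0.13 and 0.66 above the group mean. POCD replicate 2 was below its group mean for all 6, by between 0.016 and 0.65, and was the lowest POCD array for 4 of them. Among the controls, replicate 3 was below the group mean for all 6 and replicate 2 was the highest for 4. Averaged over the 6, the deviation was 0.38 on POCD replicate 3 and -0.30 on POCD replicate 2.

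The place of POCD replicate 3 depended on the scaling. In the unscaled intensities it was the highest POCD array for 3 of the 6, namely mmu_circRNA_22261, mmu_circRNA_42249 and mmu_circRNA_25474, and POCD replicate 1 was the highest for the other 3. POCD replicate 3 was also the array with the lowest 75th percentile. Its part in the co-variation is measured below by leaving it out.

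For the 15 pairs of the 6 circRNAs, Pearson's r of the deviations over the 6 arrays ranged from 0.11 to 0.99, with a mean of 0.43, and was above 0 for all 15. The mean was 0.48 in the deposited values, also with 15 of 15 above 0. Without POCD replicate 3 the mean r fell to 0.13, with 8 of 15 above 0 and values down to -0.69. Without scaling between arrays it was 0.16, also with 8 of 15 above 0. Leaving out POCD replicate 2 or control replicate 3 left 14 of 15 above 0, with lowest values of -0.21 and -0.20. With only 6 arrays in 2 groups, these r are descriptions of a few points. For scale, the median r of a member with all other circRNAs lay between -0.046 and 0.10, that with the other members between 0.23 and 0.35, and that with the other 4 raised circRNAs of the list between 0.075 and 0.39, so nothing particular to the 6 is read from their r.

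Of the 15 pairs, 3 stood apart, a choice made after the values were seen. The deviations of mmu_circRNA_42249, mmu_circRNA_41895 and mmu_circRNA_32165 had r of 0.99, 0.95 and 0.95 with each other. All of these circRNAs were lowest of the POCD group in replicate 2, with deviations of -0.65, -0.54 and -0.44, and had control deviations of at most 0.12 in size, so that the POCD arrays set these r almost alone. The r stayed between 0.94 and 0.98 without POCD replicate 3 and between 0.86 and 0.97 without scaling, but fell to between 0.30 and 0.93 without POCD replicate 2. mmu_circRNA_22261 and mmu_circRNA_25474, which were instead lowest in POCD replicate 1, had r of 0.69 with each other and between 0.11 and 0.35 with these 3. mmu_circRNA_39251 had its largest deviation, 0.56, in control replicate 2, where mmu_circRNA_25474 also had a deviation of 0.35, and their r was 0.54. Such high r was not particular to these pairs. The deviations of mmu_circRNA_42249, mmu_circRNA_41895 and mmu_circRNA_32165 had r of 0.997, 0.997 and 0.998 with circRNAs outside the 6. The log2 fold changes of those circRNAs lay between 0.031 and 0.21.

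**Figure D3:**
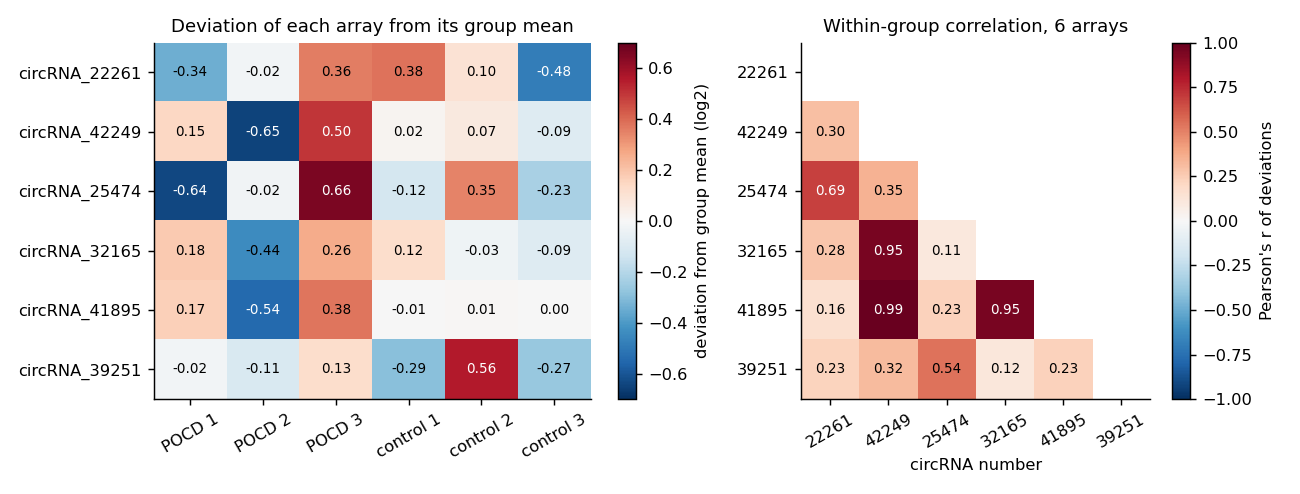
Left, deviation of each array (columns) from the mean of its group in scaled log2 intensity for each circRNA (rows), with red above and blue below the mean. Right, Pearson's r of these deviations over the 6 arrays for the 15 pairs, where mmu_circRNA_42249, mmu_circRNA_32165 and mmu_circRNA_41895 form the dark block of 0.95 to 0.99.

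Pearson's r was also taken over the 6 scaled values as such, which include the group difference on which the 6 were chosen. That difference by itself raises r between members, so their places are a description only. mmu_circRNA_42249 and mmu_circRNA_41895 were each the circRNA most like the other among 14124 with values on every array, with r of 0.996. mmu_circRNA_32165 had mmu_circRNA_41895 in place 7 with r of 0.985. The other members had no member near the top: for mmu_circRNA_22261 the nearest was mmu_circRNA_25474 in place 271, with r of 0.90. The probe most like mmu_circRNA_39251 was ASCRP4006174, with r of 0.996 and a log2 fold change of 0.90, and the one most like mmu_circRNA_25474 was ASCRP4006661, with r of 0.997 and a log2 fold change of 0.13. High r was not limited to the members, since between 67 and 226 of the 14124 circRNAs had r above 0.95 with any given member.

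The 6 probes lay at separate places on the array, and the log2 fold changes of the spots around them are given as a description. The grid has 192 rows and 82 columns, and the nearest members, mmu_circRNA_22261 and mmu_circRNA_32165, were 1 row and 18 columns apart. Between 101 and 113 circRNAs tested lay within 5 rows and 5 columns of a member. Their median log2 fold change was between -0.060 and 0.017 for the 6 neighbourhoods, and -0.032 over all circRNAs tested. Around mmu_circRNA_25474 and around mmu_circRNA_39251, 1 neighbour had a log2 fold change at least as large as the member's. Around the other members none had. The 6 were chosen for large differences, so lower medians around them follow largely from that choice. An effect of place on the array was not tested.

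**Figure D4:**
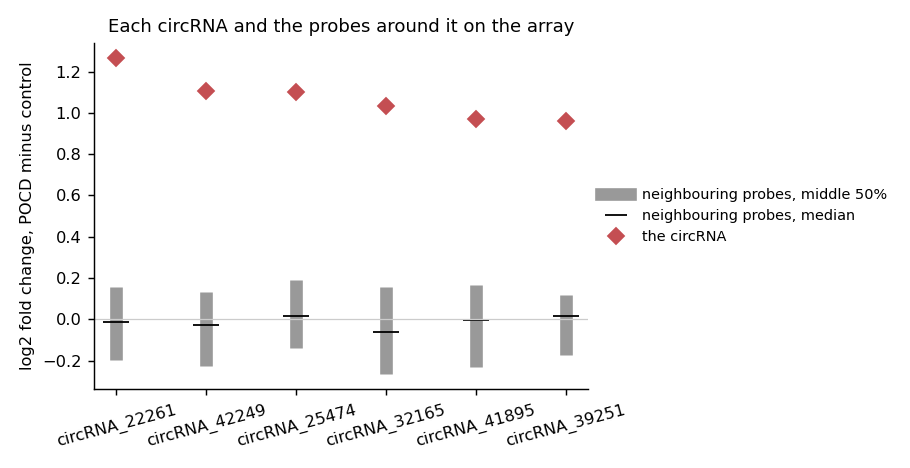
Log2 fold change (vertical axis, POCD minus control) of each circRNA as a red diamond, with the median (black dash) and the middle 50% (grey bar) of the circRNA probes within 5 rows and 5 columns of it on the array. The neighbourhood medians lie between -0.060 and 0.017, and the 6 circRNAs, which were chosen on this difference, between 0.96 and 1.26.

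The size of the difference moved with the values used. On the deposited log2 intensities it was 1.17 for mmu_circRNA_22261, 1.05 for mmu_circRNA_42249, 1.002 for mmu_circRNA_25474 and 0.997 for mmu_circRNA_32165, each smaller than on the scaled values. For the brighter probes mmu_circRNA_41895, at 0.99, and mmu_circRNA_39251, at 0.97, it was slightly larger. The order of the 6 by size was the same on both.

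The position of the array on the slide was partly tied to the group. Row 1 of the slide held the 3 control arrays together with POCD replicate 1, and row 2 held POCD replicates 2 and 3. With this row as a block, which here compares POCD replicate 1 with the controls, the log2 fold change was 0.92 for mmu_circRNA_22261, 1.25 for mmu_circRNA_42249, 1.21 for mmu_circRNA_32165, 1.14 for mmu_circRNA_41895 and 0.94 for mmu_circRNA_39251. It was 0.46 for mmu_circRNA_25474, under a fold change of 1.5. Row 2 held no control, so no value within it can be had.

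**Figure D5:**
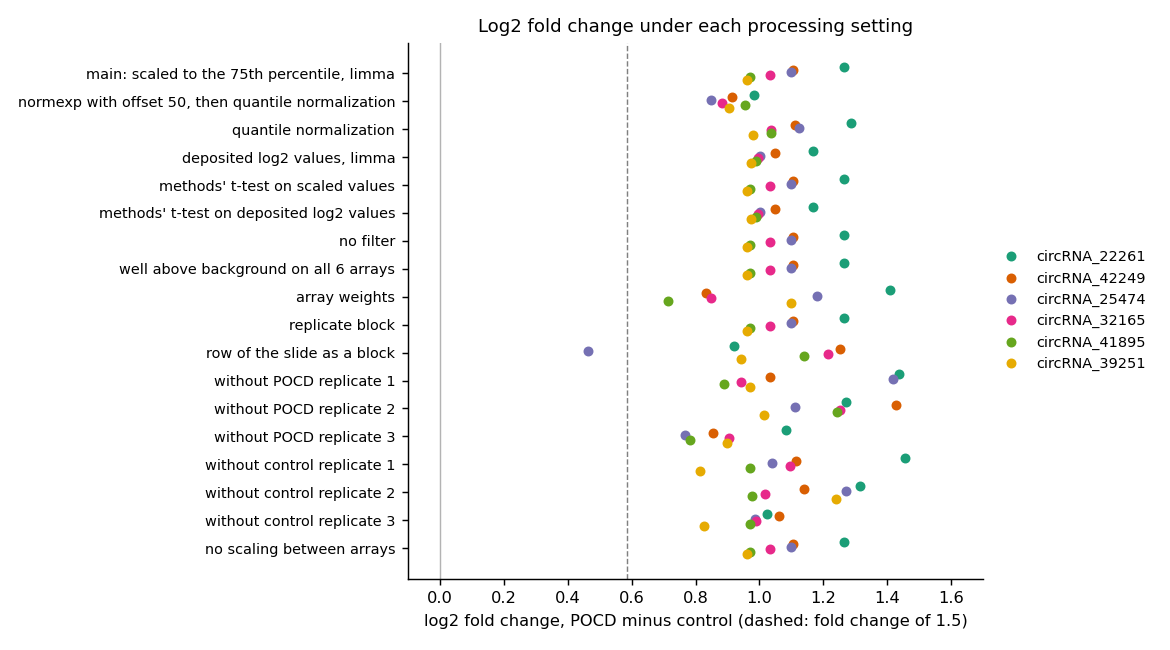
Log2 fold change (horizontal axis, POCD minus control) of the 6 circRNAs under each processing setting (rows), with 0 as a solid line and a fold change of 1.5 as a dashed line. All points lie above the dashed line except mmu_circRNA_25474 at 0.46 with slide row as a block.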

How the data were processed

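The authors extracted each array with Agilent Feature Extraction version 11.0.1.1, per the file headers and the submitters' processing notes, and deposited the intensity of every spot, background-subtracted and not normalized between arrays. The authors also deposited a matrix of log2 values, whose normalization is not given in the sources used here. Its columns had medians between 7.05 and 7.07 and rank correlations above 0.999 with their arrays, so it was read as normalized log2 intensity.

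Spots that Feature Extraction flagged as non-uniform or as population outliers were removed. Log2 intensities were scaled by subtracting, for each array, their 75th percentile over circRNA probes. circRNAs well above background on at least 3 arrays were fitted with limma version 3.58.1 (R version 4.3.3, lmFit and eBayes), with Benjamini-Hochberg adjustment over all of them. The fit was tested on simulated data. Figures were made in matplotlib 3.10.9. The methods' t-test is a two-sided Student's test. Groups follow the treatment label. The p-values set the difference between the groups against the spread between these mice, which limma moderates by the spread of all circRNAs.

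The 6 circRNAs and every list were chosen with earlier results of these data known. Other probes were named by rule, as those next to the limits of the list or most like a member by Pearson's r. No scaling between arrays was added as an alternative after seeing the data.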

Additional observations from a re-analysis of the deposited data

How the results depend on the processing

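Of 102 log2 fold changes of the 6 circRNAs under the alternatives, 0 turned direction and 2 no longer met both thresholds (1.5-fold, unadjusted p under 0.05), both of mmu_circRNA_25474: under the methods' t-test after the scaling, and with slide row as a block. So 6 of 6 passed under the other settings and 5 under these. These counts reuse the arrays on which the 6 were chosen and are no independent support. Several alternatives changed only the test, the filter or the replicate block and repeated the same log2 fold changes. As the groups did not overlap, leaving out an array could not turn the direction. With each array left out, 6 of 6 passed with limma, and the log2 fold changes lay between 0.77 (mmu_circRNA_25474 without POCD replicate 3) and 1.46 (mmu_circRNA_22261 without control replicate 1).

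Over all circRNAs tested, 257 higher and 682 lower in POCD became 135 and 239 with normexp (offset 50) and quantile normalization, 94 and 165 with the methods' t-test, 88 and 36 with that test on the deposited values, 221 and 338 with limma on the deposited values, 366 and 508 with quantile normalization and 141 and 713 with slide row as a block. The cause was not tested. With an array left out those higher numbered between 107 (POCD replicate 3 left out) and 662 (control replicate 2 left out), and those lower between 400 (control replicate 3 left out) and 1303 (control replicate 2 left out). With the replicate number as a block, 282 were higher and 734 lower, with 6 of 6 members among them. Equal numbers did not pair the arrays, since the deviations of equally numbered arrays had correlations of 0.011, -0.55 and -0.23.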
